A study of Canis lupus familiaris with 15 samples.

Results

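The drug efflux pump genes ABCB1, ABCC1 and ABCC5, were followed across 15 samples of canine lymphoma and skin. They were chosen by name, through the RefSeq identifiers of the array's probes, and are 3 of the 1357 genes that could be named in this way. Of 43603 probes on the array 6 belong to them, 2 for ABCB1, 1 for ABCC1 and 3 for ABCC5. The samples came from the dogs MalcolmX, Rosco, Jake, Thai and Dog Y (5), and each was hybridised to a 1-colour Agilent array of its own. The labels as used here give neither breed nor age.

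The groups were as follows. Skin biopsies from MalcolmX and Rosco (2) served as control tissue. Biopsies of the original drug-resistant tumour came from MalcolmX, Jake, Rosco and Dog Y (4), and those of Rosco and Dog Y are described elsewhere in the labels as taken before treatment. The only drug-sensitive tumour (1) was a biopsy from Thai, titled naive. MalcolmX also gave a fine needle aspirate (1) of the resistant tumour after metformin, which is given in diabetes and holds back the release of glucose from the liver. All other samples were from Rosco. They were an aspirate (1) after failed chemotherapy and before metformin, whose title names CHOP, an aspirate (1) in remission after metformin, aspirates (3) at relapse after metformin, an aspirate (1) labelled a second original drug-resistant tumour, and tumour tissue (1) taken after death. The relapse samples are titled as without remission, while their source names call them relapses. These 3 arrays come from 1 dog, so their spread is that within Rosco and says nothing about other dogs, and nothing in the labels tells whether they were taken from the same lesion.

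ATP-binding cassette (ABC) transporters use the energy of ATP to move molecules across membranes. ABCB1 encodes P-glycoprotein, which pumps many bulky hydrophobic drugs out of cells, among them doxorubicin and vincristine of the CHOP regimen (cyclophosphamide, doxorubicin, vincristine and prednisone), and which normal tissues such as gut, liver, the blood-brain barrier and cytotoxic lymphocytes also make. ABCC1 encodes multidrug resistance protein MRP1, an exporter of glutathione conjugates that also carries anthracyclines and vinca alkaloids and is found in most tissues. ABCC5 encodes MRP5, which exports cyclic nucleotides and nucleotide analogues and is likewise widespread. A tumour with more of such a pump can hold less drug in its cells, and P-glycoprotein has long been studied in relapsing lymphoma of dogs.

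The level of a probe is its log2 signal minus the 75th percentile of all probes on that array. A level of 0 is therefore bright, and a step of 1 doubles the signal. They can be compared between arrays for 1 probe, not between probes or genes. The lowest signal well above background lay between −6.86 and −5.50 on this scale, 66.7% to 75.9% of an array's probes exceeded background clearly, and no probe was saturated. Precision is limited by how few arrays there are. They lay on 4 slides read on 2 days. Skin, the resistant biopsies and the MalcolmX aspirate were on slides 1 and 2, read on the first day, and the rest on slides 3 and 4, read on the second.

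Not every tumour label was matched by its marker genes. MS4A1, the gene of CD20 on B cells, was the only named gene of 11 B cell markers. It lay between 1.78 and 3.53 in the MalcolmX, Jake, Dog Y and Thai biopsies, the MalcolmX aspirate, the relapse aspirates and the post-mortem sample. The failed-chemotherapy aspirate (0.40) and the remission aspirate (0.38) had less of it, below MalcolmX skin (0.84). It was not well above background in the Rosco biopsy (−7.16), the second resistant aspirate (−6.74) or Rosco skin (−8.04). In those same tumour samples CA6, a carbonic anhydrase secreted by salivary glands, lay at 8.59 and 8.99, against at most 1.45 on any other array, and the 4 named genes of 13 exocrine gland markers averaged 4.51 and 4.57. Results on the resistant biopsies are therefore also given without the Rosco biopsy. The failed-chemotherapy and remission aspirates differed from the other tumours in T and NK cell genes. The 7 named genes of 15 on that list averaged 0.13 and 0.12 there, and −1.03 in Thai and at most −2.49 on any other array. The average of a list takes in its genes that were not well above background. In samples of whole tissue, fewer cells of a type and less RNA per cell cannot be told apart.

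ABCB1 had the widest range of the pumps. Its first probe was well above background on 15 of 15 arrays and read 0.88 in the failed-chemotherapy aspirate and 0.34 in the remission aspirate of Rosco. The next lower array, the MalcolmX biopsy, stood 2.09 below the remission aspirate. The other tumour biopsies read −1.86 in Rosco, −2.03 in Jake, −2.14 in Thai and −3.31 in Dog Y. Skin read −2.41 in MalcolmX and −4.31 in Rosco, and the second resistant aspirate −2.73. The lowest levels were −4.47 in the MalcolmX aspirate after metformin, −4.73 in the third relapse aspirate and −5.12 after death, with −3.39 and −3.15 in the first and second relapse aspirates. The SD of the relapse aspirates, the only repeated sampling of 1 dog in 1 state, was 0.85. In the order of arrays only 2 steps were larger than this SD. They were the 2.09 below the remission aspirate and the 0.92 between the first relapse aspirate and Rosco skin. All other neighbours, the failed-chemotherapy and remission aspirates included, differed by less. For each pump such an SD is the spread within Rosco, so a smaller step does not show that samples of other dogs are alike. A larger step does not show that samples differ either, because a difference between arrays varies more than a single array does.

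The second ABCB1 probe was dimmer, well above background on 5 of 15 arrays. It gave the same leading pair, with −1.92 in the failed-chemotherapy aspirate and −2.21 in the remission aspirate. The second relapse aspirate (−4.64), Thai (−4.87) and Dog Y (−5.49) followed, and the remaining 10 arrays were not well above background. Between the probes Pearson's r was 0.74 and Spearman's rho 0.49 over the 15 arrays, as a description. Below the leading pair the probes ordered the samples differently: of the 3 arrays that both measured there, Thai was highest with the first probe and the second relapse aspirate with the second.

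ABCC1, with a single probe well above background on 15 of 15 arrays, had a narrow range. It was highest in the third relapse aspirate (0.83), Jake (0.76), Thai (0.66) and Dog Y (0.58). The first and second relapse aspirates (0.36 and 0.29), the post-mortem sample (0.19), MalcolmX (0.10), Rosco skin (−0.11) and the MalcolmX aspirate (−0.18) came next. Lower levels were found in the remission aspirate (−0.65), MalcolmX skin (−0.87), the failed-chemotherapy aspirate (−0.97), the second resistant aspirate (−1.11) and, lowest, the Rosco biopsy (−1.87). The steps above the remission aspirate (0.47) and above the Rosco biopsy (0.75) exceeded the SD of 0.29 among relapse aspirates, and the other 12 steps did not.

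ABCC5 was highest in skin and in the gland-marked Rosco samples. Its first probe, well above background on 15 of 15 arrays, read 2.23 in MalcolmX skin, 1.22 in the Rosco biopsy, 0.92 in the second resistant aspirate and, in the skin of Rosco, 0.69. A middle set held the MalcolmX biopsy (0.17), the remission aspirate (−0.04), the MalcolmX aspirate (−0.20), the post-mortem sample (−0.24) and the failed-chemotherapy aspirate (−0.28). Jake (−1.08), Thai (−1.90), Dog Y (−2.47) and the relapse aspirates (−2.32, −2.46 and −2.81) were lowest. This probe is printed as 5 spots per array, whose SD within an array was between 0.02 and 0.11, and neighbours inside the middle set differed by less than the relapse SD of 0.25.

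The ABCC5 probes could also be set against each other. The second probe was well above background on all 15 arrays and followed the first closely, with Pearson's r of 0.99 and Spearman's rho of 0.96. It too was highest in MalcolmX skin (−0.85) and lowest in the relapse aspirates and Dog Y (−4.82 to −4.57). The third probe was well above background only in MalcolmX skin (−4.61). Across the arrays, which share dogs and slides, ABCC1 and ABCC5 ran opposite to each other (Pearson's r of −0.79, Spearman's rho of −0.82, and r of −0.82 without skin). ABCB1 had r of −0.45 with ABCC1 and 0.24 with ABCC5.

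**Figure D1:**
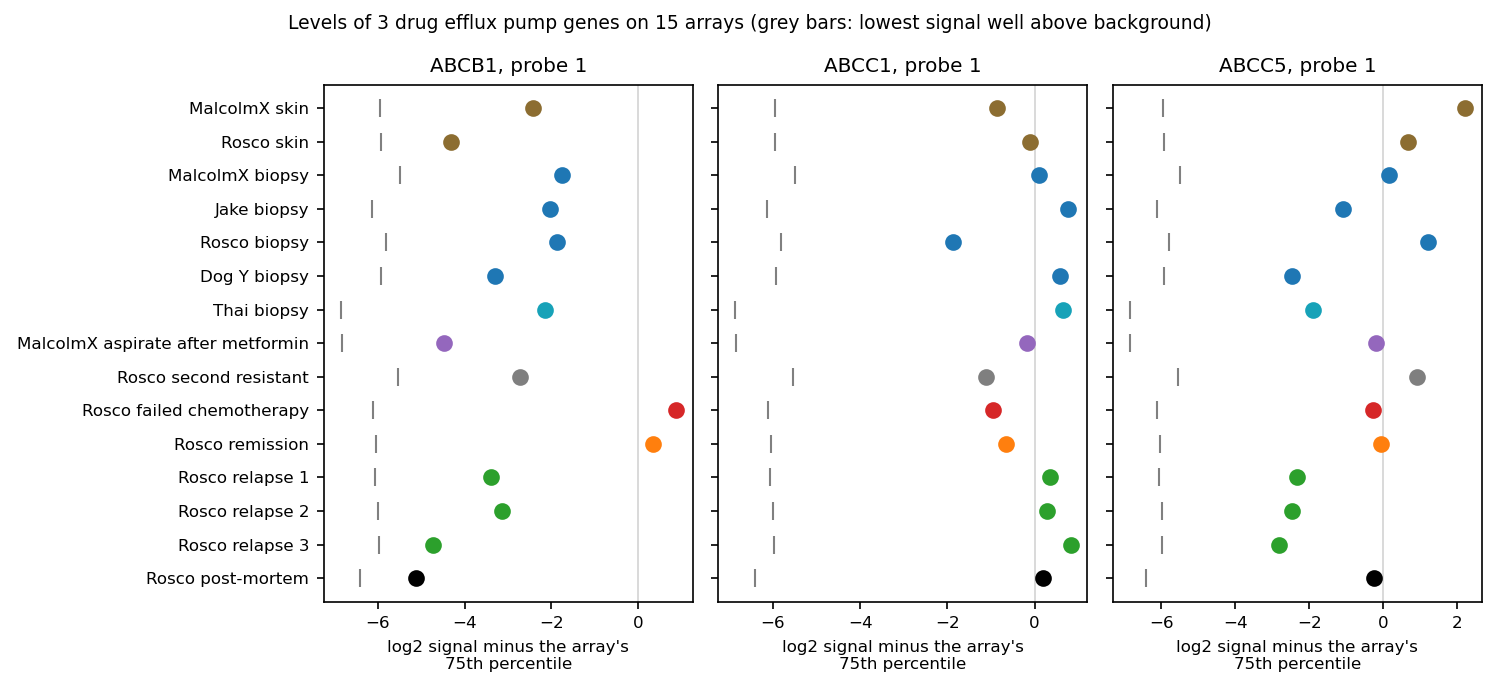
Level of the first probe of ABCB1, ABCC1 and ABCC5 (log2 signal minus the array's 75th percentile, horizontal axes) on each of 15 arrays (rows), with colours for the groups and a grey bar for the lowest signal well above background on that array. ABCB1 stands apart in the remission (0.34) and failed-chemotherapy (0.88) aspirates, while ABCC5 is lowest in the relapse aspirates and Dog Y.

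**Figure D2:**
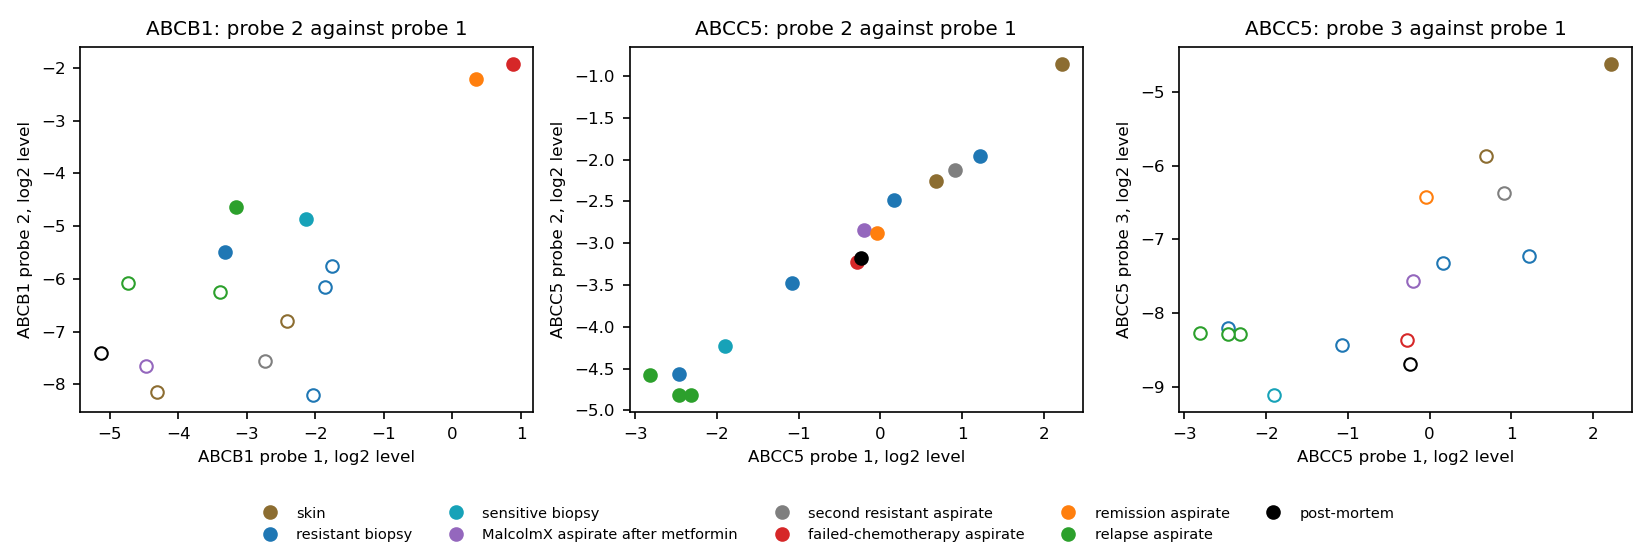
Levels of the second probe of ABCB1 and of the second and the third probes of ABCC5 (vertical axes) against the first probe of the same gene (horizontal axes), both as log2 signal minus the array's 75th percentile, for 15 arrays. Filled points are well above background for the probe on the vertical axis; the second ABCC5 probe is so on 15 arrays, the second ABCB1 probe on 5 and the third ABCC5 probe on 1.

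The relapse aspirates of Rosco were compared with the earlier aspirates, after failed chemotherapy and in remission, to ask whether pump RNA differed once the tumour had come back after metformin. ABCB1 and ABCC5 fell and ABCC1 rose. ABCB1 averaged −3.76 (SD 0.85, n = 3) at relapse against 0.61 (SD 0.38, n = 2) earlier, 20.6-fold lower. Every relapse aspirate lay below both earlier ones, by at least 3.49. The difference was −4.37 (SE 0.50, 95% interval −5.57 to −3.16, adjusted p = 0.00189 by limma with Benjamini-Hochberg adjustment). Among 25366 targets tested, 0.568% had a lower difference. The second ABCB1 probe read −4.64 in the 1 relapse aspirate where it was above background, against −1.92 and −2.21 earlier, and the other 2 relapse aspirates were not above background.

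ABCC5 averaged −2.53 (SD 0.25, n = 3) at relapse and −0.16 (SD 0.17, n = 2) earlier, 5.17-fold lower. The groups were separated by 2.04. The difference was −2.37 (SE 0.22, 95% interval −2.90 to −1.84, limma adjusted p = 0.000996), and −1.68 with the second probe (adjusted p = 0.00199). ABCC1 went the other way. It averaged 0.49 (SD 0.29, n = 3) at relapse and −0.81 (SD 0.22, n = 2) earlier, 2.46-fold higher with the groups 0.94 apart. The difference was 1.30 (SE 0.24, 95% interval 0.72 to 1.88, limma adjusted p = 0.00904).

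All 3 pumps passed, in a comparison where limma called 8545 of 25366 targets, or 33.7%, with 4413 higher and 4132 lower, so that passing was common here. The groups did not overlap for any of the pumps, and how many of all targets were separated in this way was not counted. With slide as a block the differences were −4.27 for ABCB1, 1.26 for ABCC1 and −2.36 for ABCC5, and each passed. Within slide 3, with 1 array a side and no test, they were −4.27, 1.32 and −2.04, and within slide 4 −4.28, 1.21 and −2.60, where ABCC1 missed (limma adjusted p = 0.153). ABCC1 also missed without the failed-chemotherapy aspirate (1.14, adjusted p = 0.0651), and when all 15 arrays shared 1 estimate of spread ABCC1 (adjusted p = 0.408) and ABCC5 (0.246) missed while ABCB1 passed (0.0221). An exact permutation of 3 against 2 arrays cannot go below p = 0.1, so these calls rest on the spread shared across targets.

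Cell type markers moved in the same comparison. Of 7 T and NK cell genes 5 fell and none rose. CD8A, a co-receptor of cytotoxic T cells, lay at 3.21 and 2.89 in the earlier aspirates and between −3.97 and −3.04 at relapse, a difference of −6.42 (limma adjusted p = 0.000240). The costimulator CD28 differed by −5.34, the NK receptor KLRD1 by −2.93, perforin PRF1 by −2.27 and the death ligand FASLG by −1.25, all past the threshold. CD4 (−0.30) and the chemokine CCL5 (−1.79) did not pass. MS4A1 rose by 1.70 (adjusted p = 0.00278). All 5 named proliferation genes of 10 rose, by a median of 1.76, among them BIRC5, a mitotic inhibitor of apoptosis (1.94), and the thymidylate synthase TYMS (1.76). Of 6 fibroblast and matrix genes the proteoglycan DCN (−3.99) and the surface protein THY1 (−4.58) fell and the others did not pass. THY1 did not run like the rest of that list. It averaged 4.99 in the earlier aspirates and 2.18 in skin, while the others were higher in skin, DCN at 6.94 against 0.93. The part of these marker changes in the pump differences was not tested.

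**Figure D3:**
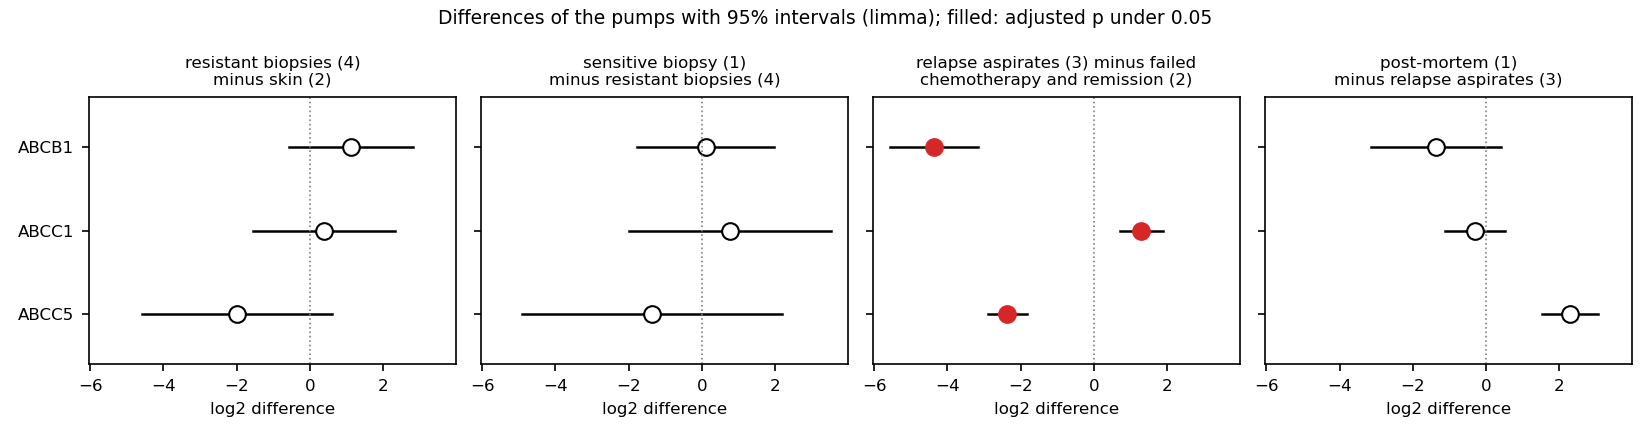
Differences of ABCB1, ABCC1 and ABCC5 (rows, first probes) on the log2 scale with 95% intervals from limma, in 4 comparisons with the number of arrays in parentheses. Filled points have an adjusted p under 0.05, which only the 3 pumps in the relapse comparison have (−4.37, 1.30 and −2.37).

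The lists of related genes were read in the same comparison. Only 7 of 45 other ABC transporters were named and 4 could be tested. TAP1, which carries peptides to class I molecules, fell by 0.83 (limma adjusted p = 0.0153), while its partner TAP2 (0.12), the nucleotide exporter ABCC4 (−0.11) and the retinal transporter ABCA4 (−0.21) did not pass. The median of the list was −0.16, against −0.08 over all targets tested. ABCB11, the bile salt pump, ABCC2, a conjugate exporter of the liver, and the chloride channel CFTR were too dim to test.

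Of 54 genes of drug metabolism and detoxification 22 were named and 19 tested, with 5 higher and 2 lower at relapse and a median of −0.39. These 7 of 19 stand beside 33.7% called over all targets, so the list's share is near the background and says nothing particular about it. CYP3A12, a main drug-oxidising enzyme of the dog, rose by 2.31 (limma adjusted p = 0.00174). Its close relative CYP3A26 rose at least 4.30-fold from levels not well above background, but near-identical copies may share signal on an array. ALDH1A1, an aldehyde dehydrogenase that inactivates active forms of cyclophosphamide, rose by 1.84, TPMT, which methylates thiopurines, by 1.56, and MGMT, which repairs alkylated guanine, by 1.07. CYP2D15 fell by 1.50 and the glutathione peroxidase GPX1 fell by 1.48. With background correction by normexp CYP3A26 (0.33) and ALDH1A1 (0.30) no longer passed.

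Of 25 targets and effectors of CHOP drugs 6 were named and tested. Besides MGMT, which is on both lists, the survival genes BCL2 and BCL2L1 fell, by 2.50 (adjusted p = 0.00213) and at least 2.34-fold, the latter not above background at relapse. The list's median was −0.85. Of 39 known regulators of pump genes 6 were named. MYC, a transcription factor that drives growth, rose by 1.94 (adjusted p = 0.00255) and CTNNB1, which encodes beta-catenin, fell by 0.70 (adjusted p = 0.0323), with a median of −0.13 for the list. The regulators thus had 1 gene higher and 1 lower of 6, and the CHOP list 1 higher and 2 lower of 6. Over all targets 33.7% were called, so such calls say nothing particular about these lists. Of 28 genes of metformin transport and response 2 were named. PCK1, an enzyme of glucose production, fell at least 15.7-fold, from −2.04 to levels not above background. Of the 2 named fat cell genes ADIPOQ fell by 1.88 (limma adjusted p = 0.0437) and LEP (−0.05) did not pass. The part of fat cells in the PCK1 value was not tested. SLC22A2, a kidney carrier of metformin, was not well above background on any of the 15 arrays.

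The resistant biopsies were set against skin to ask whether resistant tumours hold more pump RNA than control tissue. No pump passed. The mean level of ABCB1 was −2.24 in biopsies (SD 0.72, n = 4) and −3.36 in skin (SD 1.34, n = 2), a difference of 1.12 (SE 0.70, 95% interval −0.57 to 2.82, limma adjusted p = 0.428). The Dog Y biopsy lay below MalcolmX skin, so the groups overlapped. ABCC1 averaged −0.11 (SD 1.21) and −0.49 (SD 0.53), a difference of 0.38 (95% interval −1.56 to 2.33, adjusted p = 0.797). ABCC5 averaged −0.54 (SD 1.59) and 1.46 (SD 1.09), a difference of −1.99 (95% interval −4.58 to 0.59, adjusted p = 0.389). Both of these overlapped as well, through the Rosco biopsy. Limma called 0.431% of 23921 targets here.

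Without the Rosco biopsy the values were 1.00 for ABCB1, 0.97 for ABCC1 (limma adjusted p = 0.146) and −2.58 for ABCC5 (0.101), and none passed. Single arrays moved the ABCB1 value most. It was 2.07 without MalcolmX skin and 0.17 without Rosco skin, 0.01 within slide 1 and 2.56 within slide 2, which holds 1 array of each tissue. ABCC1 was 0.69 and 0.21 within these slides and ABCC5 −3.00 and −0.52. In the dogs with both tissues, ABCB1 was higher in the biopsy than in skin by 0.66 in MalcolmX and 2.44 in Rosco. ABCC1 differed by 0.97 in MalcolmX and −1.75 in Rosco, and ABCC5 by −2.06 and 0.54. Skin brings its own cells to this comparison. The 7 named keratinocyte genes of 12 averaged 3.84 and 6.86 in skin and at most −2.65 on any other array, and the 6 named fibroblast genes of 9 averaged 3.90 and 5.34 in skin and 0.09 to 3.77 in the biopsies. Their part in the pump values was not tested.

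Other genes of drug handling were lower or undecided against skin. GPX3, a secreted glutathione peroxidase, fell by 5.36 (limma adjusted p = 0.0464), the only call in the pathway lists, and missed with normexp (−3.77, adjusted p = 0.143) and without any 1 array other than the Rosco biopsy. ABCB11 was not above background in any biopsy and stood at least 22.2-fold higher in skin (adjusted p = 0.0798). TAP1 differed by 2.00, MYC by 1.15, the apoptosis gene BAX by 1.97, the cortisol-activating enzyme HSD11B1 by −2.18 and the membrane scaffold CAV1 by −4.84, none past the threshold. PCK1 did not pass either. It read 6.26 and 0.63 in skin and −1.71 in the MalcolmX biopsy, and was not above background in the other 3 biopsies. Without the Rosco biopsy TAP1 (2.78), BAX (2.23) and MYC (2.08) passed, as did ABCB11. In that setting limma called 3124 targets instead of 103, so passing was more common.

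The sensitive biopsy of Thai was set against the resistant biopsies, the contrast in which a pump would differ if its RNA went with the labelled response. With the first probe ABCB1 in Thai (−2.14) lay within the resistant range of −3.31 to −1.75. The difference was 0.10 (95% interval −1.76 to 1.96). The second ABCB1 probe read −4.87 in Thai, above Dog Y (−5.49), the only resistant biopsy where that probe was well above background. ABCC1 (0.66) and ABCC5 (−1.90) lay inside the resistant ranges, −1.87 to 0.76 and −2.47 to 1.22. The differences were 0.77 (95% interval −2.00 to 3.53) and −1.36 (−4.90 to 2.18), and the limma adjusted p was 1.00 for each pump. These intervals hold both no difference and differences of several fold, and the single sensitive array borrows its spread from the resistant group.

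Limma called 0 of 26343 targets, a share of 0%, with 786 at an unadjusted p under 0.05. Without the Rosco biopsy ABCB1 differed by 0.23, ABCC1 by 0.18 and ABCC5 by −0.77, and without Dog Y ABCB1 turned to −0.26. Thai lay on a slide and scan day with none of the resistant biopsies, so array batch and tumour cannot be told apart. Among the listed genes 0 passed. Among tested genes the farthest from 0 in their lists were CFTR (−1.57), ABCC2 (1.51), GPX2 (−1.25), the caffeine-oxidising CYP1A2 (−1.20), BCL2 (−0.84), the DNA damage kinase ATM (0.70), MYC (0.96) and CAV1 (−2.15). CFTR (0.23) and GPX2 (0.57) changed sign without the Rosco biopsy.

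The post-mortem sample of Rosco was set against the relapse aspirates of the same dog. It was tissue taken after death, so the way of sampling and death itself cannot be told apart from the stage of the tumour. None of the pumps passed. The post-mortem array lay outside the relapse range for each, by only 0.09 for ABCC1. How many of all targets lay outside that range was not counted. ABCC5 read −0.24 against −2.81 to −2.32, a difference of 2.30 (SE 0.30, 95% interval 1.52 to 3.07, limma adjusted p = 0.0652), with 1.56 for the second probe (adjusted p = 0.0887). ABCB1 read −5.12 against −4.73 to −3.15, a difference of −1.37 (95% interval −3.15 to 0.42, adjusted p = 0.405), which only 0.343% of targets went below. ABCC1 read 0.19 against 0.29 to 0.83 and differed by −0.30 (95% interval −1.13 to 0.53, adjusted p = 0.682).

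Limma called 0 of 27116 targets (0%) after death, with 4128 at an unadjusted p under 0.05. The single post-mortem array borrows its spread from the relapse aspirates, so calls gained or lost here carry no spread of its own. ABCC5 passed with normexp (1.66, adjusted p = 0.0114) and without the third relapse aspirate (2.16, 0.0493), and read 2.09 against the relapse aspirate of its own slide. ABCB1 and ABCC1 read −1.73 and −0.16 against that aspirate. Genes of connective tissue stood higher in the post-mortem sample too. All 6 named fibroblast and matrix genes did, by a median of 2.72, with DCN at 5.08 and the collagen COL1A1 at 4.10, and all 5 named endothelial genes of 10, by a median of 1.83, with none called. The list averaged 2.55 after death and −0.66 to −0.01 at relapse. The part of these cells in the ABCC5 value was not tested. CAV1, abundant in such cells, differed by 3.65 (adjusted p = 0.0584). CYP3A26 (−1.86), GPX3 (1.95), HSD11B1 (2.07), ABCC2 (0.83), ABCA4 (0.54), EZR, a protein that ties P-glycoprotein to the cytoskeleton (−0.49), and ATM (0.43) were the other tested genes farthest from 0 in their lists, and PCK1 was at least 1.24-fold higher.

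Single pairs of arrays followed a dog over treatment, with no test. From failed chemotherapy to remission on metformin, none of the Rosco values reached the 2-fold mark that 4.52% of 24807 targets passed. ABCB1 went from 0.88 to 0.34, ABCC1 from −0.97 to −0.65 and ABCC5 from −0.28 to −0.04. The MalcolmX aspirate after metformin differed more from the biopsy before it. ABCB1 went from −1.75 to −4.47, 6.60-fold lower, where 9.06% of 23183 targets passed 2-fold and 0.388% had a lower difference. Its second probe was not above background on either array. ABCC1 (−0.28) and ABCC5 (−0.37) moved by under 2-fold. Biopsy and aspirate differ in how tissue was taken, which cannot be told apart from treatment, and the T and NK cell list averaged −2.98 in the biopsy and −4.19 in the aspirate. That average takes in CD28, which was not well above background on either array.

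The second resistant aspirate of Rosco was like the first biopsy of that dog in gland markers. Between them ABCB1 differed by −0.87, ABCC1 by 0.75 and ABCC5 by −0.31, all under 2-fold, where 8.44% of 23933 targets passed 2-fold. Only 1.09% of targets had a lower difference than ABCB1. The ABCB1 difference was about the size of the SD among relapse aspirates (0.85), and the ABCC1 difference was larger than its SD (0.29). A difference between 2 arrays varies more than a single array does, so these SDs are not its spread. Neither sample had MS4A1 above background, so these levels belong to tissue without a measured B cell marker.

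Among 1059 named genes above background on at least 8 of 15 arrays, those whose levels ran most like each pump were found by Pearson's r over the 15 arrays, which share dogs, slides and cell makeup. For ABCB1 they were CRYBA1, a crystallin of the eye lens (r of 0.78), CD8A (0.78), PSEN2, a subunit of gamma-secretase (0.76), IL12RB2, a receptor chain for interleukin 12 (0.75), and CD38, an ectoenzyme of lymphocytes (0.73). Spearman's rho was lower, at 0.36 for CD8A, 0.35 for IL12RB2 and 0.35 for CD38. The most opposed were MEN1 (−0.76), ADORA2B (−0.75) and JMJD7 (−0.73). Without skin 2 of the 5 most alike remained.

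For ABCC1 the most alike were CD1A6, a canine lipid-presenting molecule (0.91), TCF4, a transcription factor of B and dendritic cells (0.91), MTPN, or myotrophin (0.89), SLC23A2, a vitamin C carrier (0.89), and the DNA repair gene BRCA2 (0.88). ANPEP, an aminopeptidase of myeloid and epithelial cells (−0.90), RABAC1 (−0.87) and SELENOS (−0.87) ran most opposite. Without skin 1 of the 5 most alike remained, though r for each of the 5 was at least 0.90. For ABCC5 they were PPFIBP1 (0.93), the membrane-binding annexin ANXA2 (0.92), INPP5A, an inositol phosphatase (0.92), DHRS4, a retinal reductase (0.91), and DCN (0.90). GNB1, a G protein subunit (−0.95), the splicing factor PRPF31 (−0.93) and CDKAL1 (−0.91) ran most opposite.

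**Figure D4:**
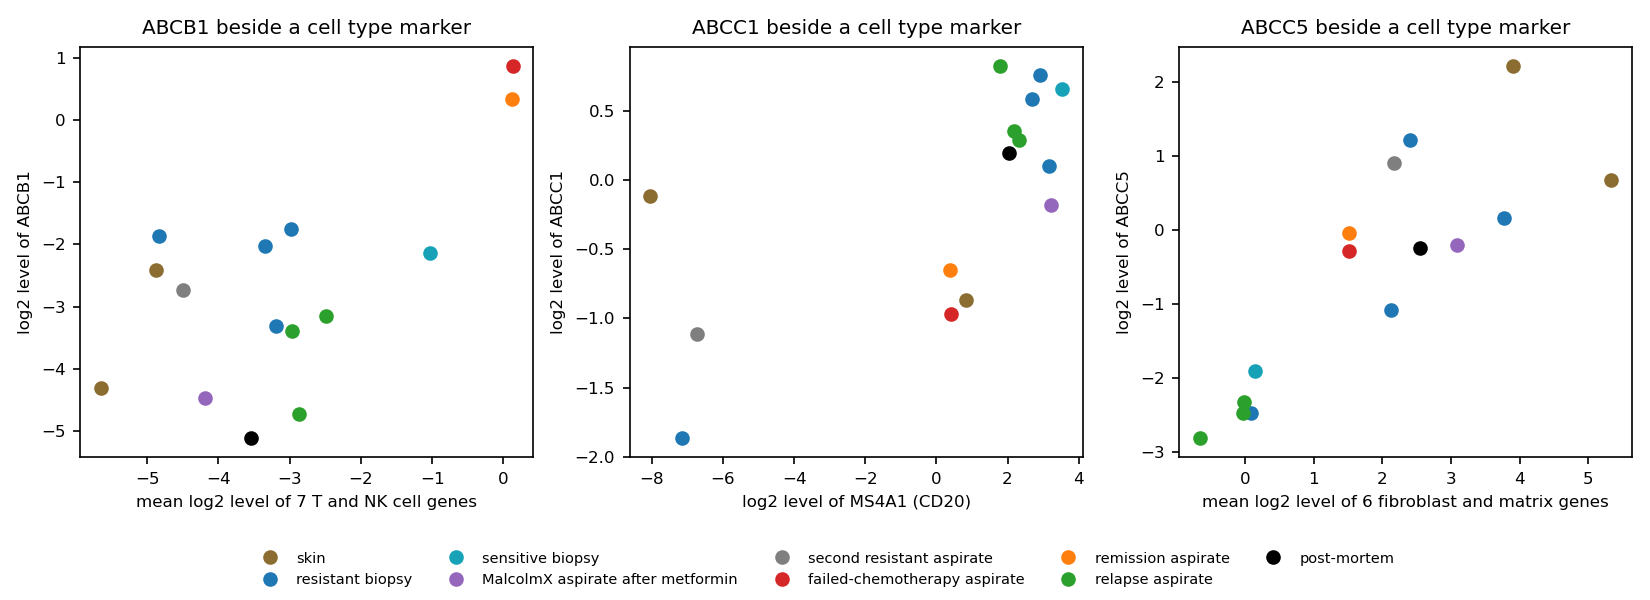
Levels of the pumps (vertical axes) beside a cell type marker (horizontal axes) on 15 arrays, all as log2 signal minus the array's 75th percentile. ABCB1 is set beside the mean of 7 T and NK cell genes, ABCC1 beside MS4A1 and ABCC5 beside the mean of 6 fibroblast and matrix genes; the failed-chemotherapy and remission aspirates are highest for both ABCB1 and the T and NK cell genes.

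The plot of pumps beside markers shows how the levels sat across samples. ABCB1 was highest where T and NK cell genes were highest. With the first probe the MalcolmX and Rosco biopsies had more ABCB1 signal (−1.75 and −1.86) than Thai (−2.14). The T and NK cell list averaged −2.98 and −4.84 in them against −1.03 in Thai. With the second ABCB1 probe Thai (−4.87) was well above background and neither of these biopsies was. ABCC5 was lowest in the samples with the lowest fibroblast genes, the relapse aspirates, Dog Y (0.09) and Thai (0.14). Above these the orders differed. Jake had a fibroblast mean of 2.12 and ABCC5 at −1.08, against 1.52 and −0.28 in the failed-chemotherapy aspirate. The fibroblast mean takes in THY1, which was higher in the failed-chemotherapy and remission aspirates than in skin. ABCC1 was lowest in the samples with MS4A1 dim or below 1, with the exception of Rosco skin, where MS4A1 was not above background and ABCC1 read −0.11.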

How the data were processed

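Each array's spot intensities were deposited by the authors as Agilent Feature Extraction output (version 11.0.1.1, per the submitters' processing notes). Per the file headers, the processed signal is an intensity with local background and spatial trend removed, not normalised between arrays, beside flags of 0 or 1 for signal above background, saturation and outlying pixels. The series table deposited by the authors holds intensity as median minus background median, equal to the scanner values within 0.01 in 678300 of 678300 cells.

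Outlying spots (2 to 50 an array) were left out, log2 was taken, the array's 75th percentile subtracted and the spots of a probe averaged. RefSeq identifiers named 2186 of 43603 probes (5.01%); unnamed probes kept their identifier, giving 36604 targets, each read by its probe with the highest mean. "Well above background" is the scanner software's flag. Tests took the targets with this flag on each array of 1 or more of the groups. Tests used limma 3.58.1 in R 4.3.3 on the arrays compared, two-sided, Benjamini-Hochberg over all targets, threshold 0.05, checked on simulated data. Folds written "at least" set the brighter mean against the higher of the dim signal and the array's lowest signal well above background.

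Named genes are the pumps, listed genes past the threshold (otherwise the 2 tested genes farthest from 0 per list), and the 5 genes most and 3 least like each pump. The members and lists were chosen with earlier results of these data known. Alternatives were other background corrections, filters, scaling and blocks, and each replicate left out. No genome position or probe sequence is given: the gene table's assembly is not the one of the array grid.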

Additional observations from a re-analysis of the deposited data

Results flagged for a closer look

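8 values were set apart because a contrast of like kind ran in opposite directions in MalcolmX and Rosco, the 2 dogs that gave both samples of a pair. Each rests on 1 array a side, and the difference between the dogs was not tested. From skin to tumour biopsy, ABCC1 differed by 0.97 in MalcolmX and −1.75 in Rosco, and ABCC5 by −2.06 in MalcolmX and 0.54 in Rosco. The Rosco biopsy is the one without MS4A1 above background. From before to after metformin, ABCC1 differed by −0.28 in MalcolmX and 0.31 in Rosco, and ABCC5 by −0.37 and 0.24. These last 4 values are under 2-fold. In MalcolmX they compare an aspirate with a biopsy on the same slide, and in Rosco aspirates on different slides. Sampling and slide therefore cannot be told apart from the dog.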

How the results depend on the processing

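Of the relapse calls, ABCB1 kept its direction under all 15 alternatives (−4.67 to −3.07). It kept its side of the threshold under each that was tested. ABCC5 held in 13 of 15 and ABCC1 in 12 of 15. These counts take in the value within slide 3, which had no test. With 1 fit of all 15 arrays ABCC1 (1.30) and ABCC5 (−2.37) missed. Within slide 4 ABCC1 (1.21) missed, and within slide 3 ABCC5 was −2.04. Leaving out each array gave 1.13 to 1.46 for ABCC1. The count of 8545 became 677 with 1 fit of all arrays, 2516 within slide 4, and 3771 to 9758 with 1 array left out (3771 without the remission aspirate, 5528 without the failed-chemotherapy aspirate, 5634 without the first relapse aspirate). Against skin the count of 103 became 8 with normexp, 57 from the series table, 65 with no filter, 6 with every array above background, 159 by probe, 648 with all arrays, 32 with slide as a block, 40 within slide 1, 0 with dog as a block (MalcolmX and Rosco), and 5 to 3124 with 1 array left out. It was 3124 without the Rosco biopsy, 5 without Jake, 11 without MalcolmX, 21 without Dog Y, and 326 and 319 without the MalcolmX and Rosco skin, where the lone skin array is assumed to vary like the biopsies. ABCB1 was 2.56 within slide 2, and ABCC1 turned to −0.39 with dog as a block. For the sensitive biopsy the count was 11 with all arrays, ABCB1 ran from −0.26 to 0.26 with 1 array left out, CFTR from −2.76 to 0.23 and GPX2 from −2.10 to 0.57, the latter 2 turning without the Rosco biopsy. After death ABCC5 passed with normexp (1.66) and gave 2.16 to 2.40 with 1 relapse array left out, and the count of 0 became 384 with normexp, 115 by probe and 0 to 431 with 1 array left out (431 without the third relapse aspirate, 107 without the first). Of 649 alternative values of the 49 named list results, 565 kept direction and, where tested, side of the threshold. Of the rest 65 lost and 11 gained a call, 6 untested ones moved and 2 reversed (CFTR and GPX2, above). The causes were not tested. No paired analysis by replicate number was possible because the relapse aspirates alone carry numbers in the labels. Precision is limited by the number of arrays and, for the dimmer ABCB1 probe and the dimmest ABCC5 probe, by signal near background.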
